A study of Ovis aries with 36 samples.

Results

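The hypothalamus of sexually active rams was compared with that of inactive rams. All libraries labelled as hypothalamus were used, which are 12 of the 36 libraries of the series, 6 from active rams and 6 from inactive ones, and each comes from a different animal. The animals were adult males of the Rasa Aragonesa sheep breed, and the labels used here name no treatment for either group. The other 24 libraries come from the pineal gland and pars tuberalis of the same 12 rams and served here to show in which tissue a gene is mostly read. The active animals carry the numbers 1 to 6 and the inactive ones 7 to 12, and are called ram 1 to ram 12. How sexual activity was scored is not stated in the sources used here.

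The hypothalamus holds the neurons that release gonadotropin-releasing hormone, and through the pituitary they set testosterone output and with it much of male sexual behaviour. It also holds neurons of many other kinds, which use oxytocin, vasopressin, dopamine and opioid peptides, beside glia and vessels. The pars tuberalis, a sheet of pituitary cells wrapped around the stalk below the hypothalamus, borders directly on it. A bulk library reads all cells of the piece taken, so fewer cells of a type and less RNA per cell cannot be told apart.

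The counts carry Ensembl sheep gene IDs without names, and 0 of 26478 IDs could be paired with a symbol. Genes are therefore described by ID, by level and by the tissue in which they are mostly read, and no marker gene could be looked up by name. Levels are given as CPM, the counts per 1000000 counts of the library after scaling. These are not corrected for gene length, so they compare libraries for 1 gene and not genes with each other.

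Depth ran from 19251952 to 44283825 counts, and its mean differed between states by less than the spread among rams (two-sided exact permutation p = 0.582, 6 rams each). No library was a copy of another, since the 66 pairs all had a chi-square of at least 33.1 per degree of freedom. The 10 IDs with most counts in a library took 6.83% ± 1.08 of all counts in active rams and 8.67% ± 1.39 in inactive rams (SD, 6 libraries each). The two-sided exact permutation p was 0.0303, and 0.212 after Benjamini-Hochberg adjustment over 7 library measures.

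No gene passed the test by state in the hypothalamus. The quasi-likelihood test of edgeR, with Benjamini-Hochberg adjustment, called 0 of 15655 genes (0%) at an adjusted p below 0.05, and the lowest adjusted p was 0.941. At an unadjusted p below 0.05 there were 711 genes (4.54%), of which 364 were higher in active rams (2.33%) and 347 lower (2.22%). Without scaling of composition these were 538 higher and 199 lower, and the median log2 difference (active minus inactive throughout) was 0.07. The scaling used centres the differences, and left a median of 0.01 with quartiles of -0.14 and 0.17. For 11435 genes (73%) the 95% interval of the difference excluded a 2-fold change in either direction. That share was 85% for the 8472 genes between 10 and 100 CPM and 21.6% for the 1104 genes below 1 CPM.

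**Figure D1:**
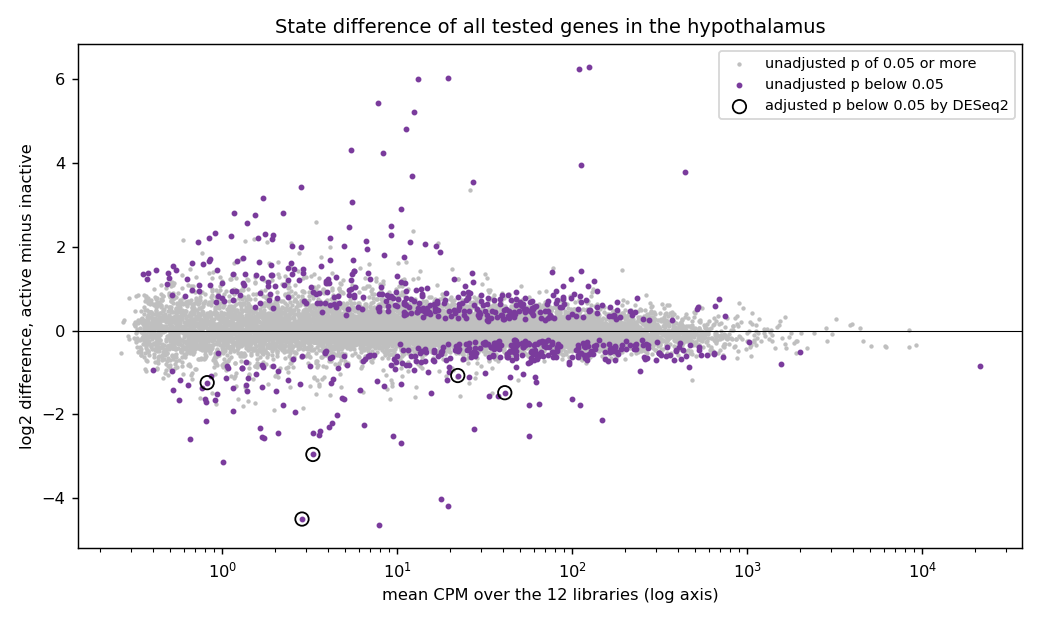
Each point is 1 of the 15655 tested genes, with its mean CPM over the 12 libraries on a log axis and its log2 difference between active and inactive rams. Purple points are the 711 genes with an unadjusted p below 0.05, and the 5 circled genes, all below 0, are those that DESeq2 called.

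DESeq2 on the same 12 libraries called 5 genes (0.0319%), and all were lower in active rams. They are named because they are so few, 3 of them after their values were seen. ENSOARG00020010269 and ENSOARG00020016201 also had the lowest p by edgeR among genes with a mean of at least 1 CPM. The other three are ENSOARG00020006027, ENSOARG00020015570 and ENSOARG00020025202. In 3 of the 5, the 6 active rams all lay below the 6 inactive ones, a pattern that 19 of all tested genes had (0.121%), 13 of them lower and 6 higher in active rams. When edgeR was fitted to all 36 libraries, so that the tissues shared 1 estimate of the spread, it called 16 genes by state in the hypothalamus, 11 higher and 5 lower. ENSOARG00020016201, ENSOARG00020006027 and ENSOARG00020025202 were among them, at adjusted p of 0.0187, 0.03 and 0.0371. That fit takes the tissues of 1 ram as independent. With the animal as a replicate block, limma's voom on the same libraries called 1 gene, ENSOARG00020006027 (adjusted p = 0.022), while ENSOARG00020016201 and ENSOARG00020025202 each had an adjusted p of 0.263. When 1 ram was left out in turn, DESeq2 called ENSOARG00020010269 and ENSOARG00020016201 in 11 of 12 fits each. It called ENSOARG00020006027 in 4, and ENSOARG00020015570 and ENSOARG00020025202 in 3 each. Without ram 8 none of the 5 genes got an adjusted p.

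ENSOARG00020010269 had 9.49, 17.0, 15.6, 16.9, 16.8 and 9.81 CPM in rams 1 to 6 and 36.8, 27.0, 34.4, 33.0, 29.3 and 19.5 CPM in rams 7 to 12. The groups did not overlap, and the gap between the highest active and the lowest inactive ram was small. The active mean was 14.3 ± 3.62 CPM and the inactive mean 30.0 ± 6.26 CPM (SD, n = 6 each). The log2 difference was -1.07 (SE 0.21). The adjusted p was 0.941 by edgeR and 0.00424 by DESeq2, both with Benjamini-Hochberg adjustment. DESeq2 still called it in 11 of 12 fits that left out 1 ram, and gave no adjusted p without ram 8. Its active mean was also the lower one in both other tissues, where the groups overlapped. In the pars tuberalis the active and inactive means were 4.81 ± 2.50 and 6.55 ± 2.60 CPM (SD, n = 6 each). In the pineal gland they were 5.48 ± 1.25 and 7.45 ± 1.51 CPM.

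ENSOARG00020016201 varied more among inactive than among active rams, with an SD of log2 CPM of 1.38 against 0.65. Rams 1 to 6 had 0.643, 0.563, 0.691, 0.452, 0.512 and 1.73 CPM, and rams 7 to 12 had 8.05, 3.23, 0.694, 10.1, 7.77 and 5.06 CPM. Ram 9 alone among the inactive rams lay within the active range. The log2 difference was -2.96 (SE 0.56), with an adjusted p of 0.941 by edgeR and 0.00038 by DESeq2. In the pineal gland the same gene stood at 0.806 ± 0.421 CPM in the active group and 2.74 ± 1.73 CPM in the inactive group (SD, n = 6 each), and ram 9 was again lowest of the inactive rams at 0.242 CPM. In the pars tuberalis, where it is mostly read, it stood at 34.6 ± 14.9 and 46.3 ± 8.49 CPM, and ram 9 was highest of the inactive rams at 54.2 CPM.

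ENSOARG00020006027 had 21.3, 24.3, 24.5, 23.6, 27.2 and 9.0 CPM in rams 1 to 6 and 49.1, 35.6, 114, 77.8, 46.8 and 40.2 CPM in rams 7 to 12. Rams 1 to 5 sat close together with ram 6 below them, and no active ram reached an inactive one. The log2 difference was -1.48 (SE 0.32), with an adjusted p of 0.999 by edgeR and 0.0211 by DESeq2. In the pineal gland its mean was 4.14 ± 0.593 CPM in the active group and 8.05 ± 3.05 CPM in the inactive group (SD, n = 6 each). No active ram there, at most 5.09 CPM, reached the lowest inactive ram, at 5.49 CPM. Those libraries come from the same rams, and the share of all genes without overlap in the pineal gland is not given here. In the pars tuberalis the groups overlapped, at 9.59 ± 3.78 and 11.2 ± 2.35 CPM.

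ENSOARG00020015570 was read at a low level, with 10 to 19 counts per library in active rams and 20 to 61 in inactive ones. Its 6 active rams held 0.358 to 0.634 CPM and its 6 inactive rams 0.934 to 1.42 CPM, again without overlap. The log2 difference was -1.24 (SE 0.24), with an adjusted p of 0.941 by edgeR and 0.0211 by DESeq2. The pineal means were close to each other, at 1.03 ± 0.805 CPM in the active group and 1.07 ± 0.375 CPM in the inactive group (SD, n = 6 each). In the pars tuberalis the active mean was the lower one, at 0.269 ± 0.147 against 0.433 ± 0.213 CPM. The groups overlapped there, and held only 53 and 76 counts in all.

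ENSOARG00020025202 was high in 3 of the 6 inactive rams, rams 8, 9 and 12, at 7.81, 10.7 and 13.0 CPM. Rams 7, 10 and 11 had 0.2, 0.793 and 0.342 CPM, within the active range, which ran from 0.0256 CPM in ram 2 to 0.979 CPM in ram 1. The log2 difference of -4.50 (SE 1.20) therefore rests on 3 rams. The adjusted p was 0.999 by edgeR and 0.0211 by DESeq2. The gene is read mostly in the hypothalamus: all pars tuberalis libraries together held 15 counts and all pineal libraries 19.

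Higher in active rams, the genes with the lowest p and a mean of at least 1 CPM were ENSOARG00020007083 and ENSOARG00020008872, which neither test called. ENSOARG00020007083 had 29.7, 33.3, 34.8, 37.1, 35.7 and 31.5 CPM in rams 1 to 6 and 22.1, 30.4, 22.2, 26.2, 18.9 and 22.2 CPM in rams 7 to 12, so ram 8 alone entered the active range. Its log2 difference was 0.51 (SE 0.13, adjusted p = 0.999 by edgeR, 0.244 by DESeq2). ENSOARG00020008872 had 8.42, 6.40, 7.69, 4.46, 3.20 and 3.23 CPM in rams 1 to 6 and 1.25 to 3.25 CPM in the inactive rams. Rams 5 and 6 lay just below ram 11, the highest inactive ram, and the log2 difference was 1.14 (SE 0.31, adjusted p = 0.999 by edgeR, 0.351 by DESeq2).

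**Figure D2:**
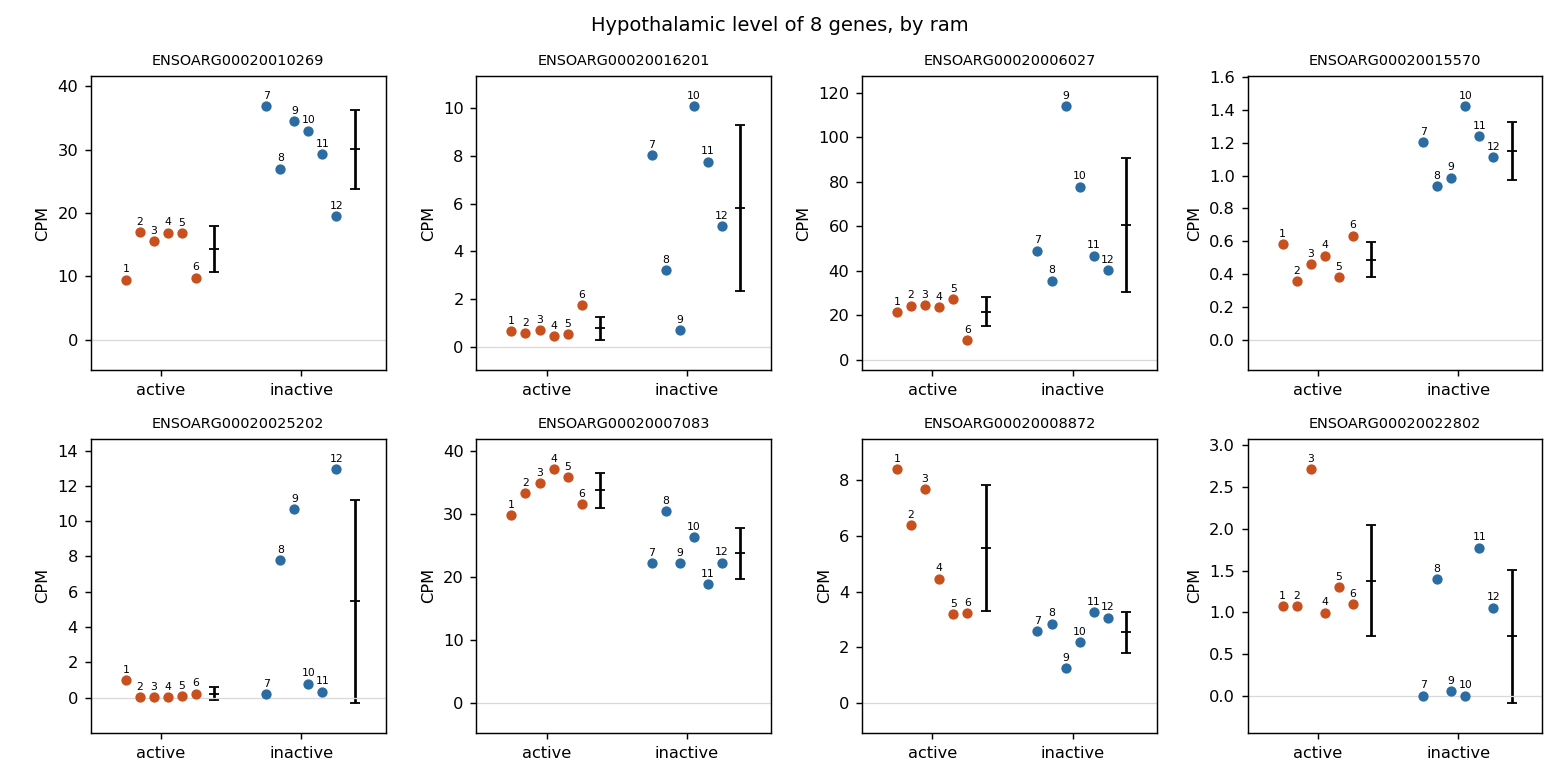
Each point is the CPM of 1 ram, numbered, in the active (orange) and inactive (blue) group, and the black bars are the mean and SD of each group of 6. In ENSOARG00020010269, ENSOARG00020006027 and ENSOARG00020015570 no active ram reaches an inactive one, while ENSOARG00020025202 is high in 3 inactive rams only and ENSOARG00020022802 is at or near 0 in rams 7, 9 and 10.

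The 711 genes with an unadjusted p below 0.05 drew their extremes from a few rams. Of the 364 higher in active rams, 197 (54.1%) had their highest value in ram 2 and 102 (28%) in ram 4. Over all tested genes, ram 2 was highest in 17.4% and ram 4 in 10.1%. Of the 347 lower in active rams, 149 (42.9%) were highest in ram 10 and 81 (23.3%) in ram 7, which were highest in 18.4% and 5.37% of all tested genes. Ram 10 was also the lowest library for 168 (46.2%) of the 364 genes higher in active rams, and for 21.6% of all tested genes. A gene chosen for a state difference tends to have its extreme in the group where it is high, so these shares describe which rams carry it.

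Some genes were far higher in 1 hypothalamus than in the other 11. With a mean of at least 1 CPM, 160 of 14585 genes were at least 4 times higher in 1 ram than in any other. Ram 4 held 77 of them, ram 2 held 46 and ram 10 held 19, and the other nine rams held 0 to 6 each. Of the 77 in ram 4, 71 (92.2%) are read mostly in the pars tuberalis, where their median was 4 times the hypothalamic one or more and not under the pineal one, against 6 of 46 in ram 2 and 2 of 19 in ram 10. For 14 of the 160 genes the same ram was also highest in both other tissues. These included all 5 of ram 1 and 4 of the 6 of ram 7, but 0 of those of rams 2, 4 and 10.

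**Figure D3:**
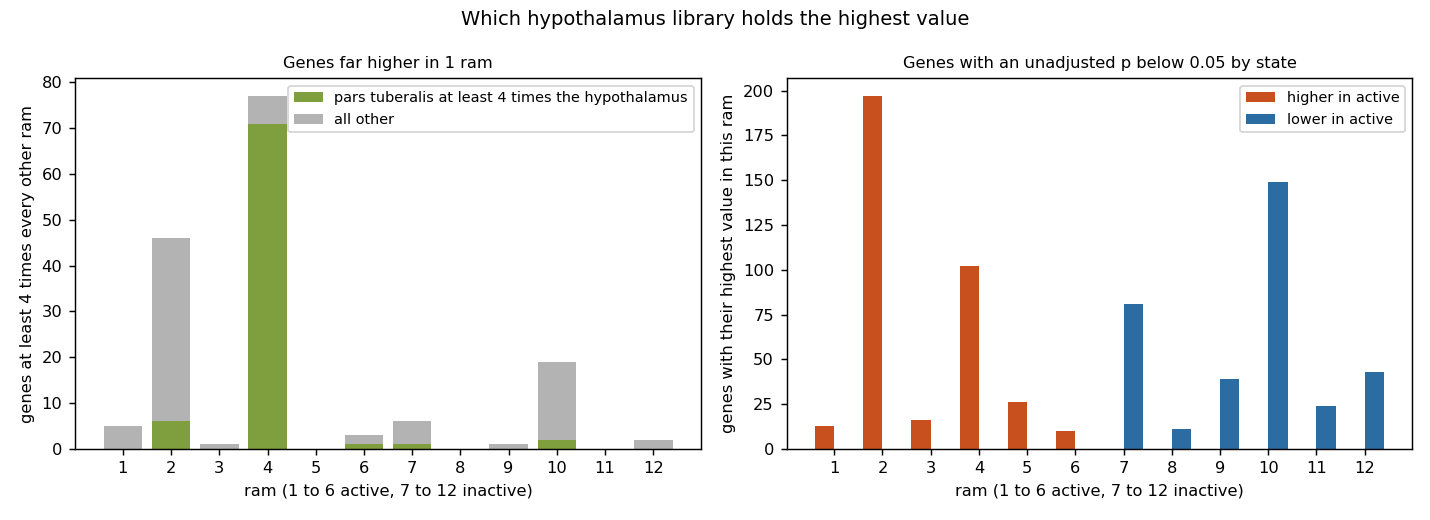
Left, the number of genes at least 4 times higher in 1 ram than in every other ram, with those read mostly in the pars tuberalis in green: ram 4 has 77, of which 71 are green. Right, for the 364 genes higher and 347 genes lower in active rams at an unadjusted p below 0.05, the ram with the highest value, led by ram 2 with 197 and ram 10 with 149.

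Genes read mostly in the pars tuberalis had higher means in active rams, and rams 3, 4 and 6 held this. Of 714 genes with a pars tuberalis median at least 4 times that of the hypothalamus, 605 (84.7%) had a higher mean in active rams, against 53.1% of all 15276 genes with at least 1 CPM in a tissue. Without ram 4 these shares were 66.2% and 51.7%, and without rams 3, 4 and 6 they were 43.1% and 48.1%. Those 3 rams were picked after the data were seen, for their high level of such genes, which by itself lowers the count without them. Genes read mostly in the pineal gland also had higher means in active rams, 535 of 784 (68.2%), which became 62.6% without ram 4 and 51.8% without the 3 rams. Only 531 of the 714 passed the filter on low counts. Among those, 75 were higher and 1 was lower in active rams at an unadjusted p below 0.05 (14.3%, against 4.54% of all genes). Without ram 4 these counts were 28 and 11 of 538, against 338 and 315 of all 15772 genes tested then. Genes that passed the filter through their active libraries alone had to differ, so these counts have no independent weight.

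A narrower set of 43 genes restricted to the pars tuberalis showed the same by library. Such a gene has a median of 20 CPM or more there, which exceeds its median in each other tissue 50 times or more. The set's level, as the median over its genes in percent of the pars tuberalis median, was 0.298, 0.15, 1.99, 17.1, 0.269 and 1.34% in rams 1 to 6. It was 0.384, 0.36, 0.473, 0.14, 0.253 and 0.494% in rams 7 to 12. Rams 4, 3 and 6 stood above all inactive rams, and rams 1, 2 and 5 lay within the inactive range. All 43 genes had counts in hypothalamus libraries, and 41 had a higher mean in active rams, which became 36 without ram 4 and 15 without rams 3, 4 and 6. Of 69 genes restricted to the pineal gland by the same rule, 37 had a higher mean in active rams and 31 a lower one. That is 53.6% higher, near the 53.1% of all 15276 genes with at least 1 CPM in a tissue. Whether the pars tuberalis level has a part in the other differences was not tested. With that level as a covariate edgeR called 0 genes, and 807 had an unadjusted p below 0.05. The fit without it also called 0, so this count cannot decide the question.

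Genes read mostly in the hypothalamus leaned the other way. Of 637 genes with a hypothalamus median at least 4 times that of both other tissues, 392 had a lower mean in active rams and 245 a higher one. That is 38.5% higher, against 53.1% of all 15276 genes with at least 1 CPM in a tissue. Without ram 4, 344 had a lower mean and 293 a higher one, or 46% higher against 51.7% of all. Without rams 3, 4 and 6 the shares were 38.1% and 48.1%, and without ram 10 they were 34.4% and 53.8%. In the state test, 18 of the 713 tested genes of this kind were higher and 50 lower at an unadjusted p below 0.05 (9.54%, against 4.54% of all), with a median log2 difference of -0.13. Without ram 4 the counts were 31 higher and 34 lower of 727, against 338 and 315 of all 15772 genes tested then. The median log2 difference of the 727 was -0.03. Among 35 genes restricted to the hypothalamus, 26 had a lower mean in active rams with or without ram 4.

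The level of those 35 genes set the inactive rams apart from each other more than it set the groups apart. In percent of the hypothalamus median it was 123, 99.3, 71.3, 91.5, 96.4 and 83.6% in rams 1 to 6, and 170, 55.9, 118, 207, 131 and 85.9% in rams 7 to 12. Rams 10 and 7 were highest and ram 8 was lowest, all inactive. The set was chosen from these libraries, without regard to state, so its level shows only how the libraries differ.

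**Figure D4:**
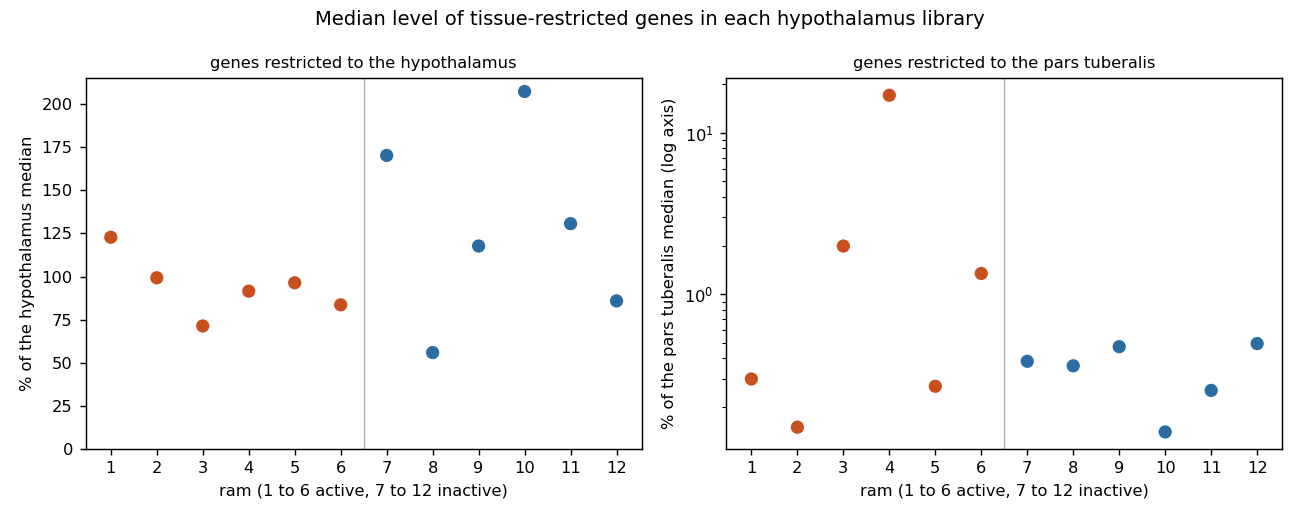
The median level of 35 genes restricted to the hypothalamus (left, linear axis from 0) and of 43 genes restricted to the pars tuberalis (right, log axis) in each of the 12 hypothalamus libraries, in percent of the median of the set's own tissue. Inactive rams run from 55.9 to 207% on the left, and ram 4 stands at 17.1% on the right.

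Genes with few and with many counts leaned in different directions. Of the 3804 genes between 1 and 10 CPM, 57.2% had a log2 difference above 0, against 52.2% of all tested genes. At an unadjusted p below 0.05, 122 of them were higher and 67 lower (4.97%, against 4.54% of all). Of the 2275 genes at 100 CPM or more, 43% lay above 0, with 42 higher and 92 lower by the same threshold (5.89%). With relative log expression scaling these shares were 56% and 41.2%, against 50.7% of all tested genes. Without scaling of composition they were 64.7% and 53.1%, against 62.9% of all. In each case the share was above that of all genes between 1 and 10 CPM and below it at 100 CPM or more. Only without scaling of composition did a majority of the genes at 100 CPM or more lie above 0.

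The main axis of variation among the 12 hypothalami did not part the states. The first principal component of log2 CPM held 38% of the variance, and its mean score differed by 12.0 between the states (exact permutation, two-sided p = 0.673, adjusted p = 0.883 over 7 library measures). Rams 6, 12, 3 and 8 had the highest scores, at 66.4, 62.8, 47.4 and 32.4, and ram 10 had the lowest, at -83.7. The second component held 15.2% and set ram 2 apart, at -70.9 where the next was -16.6 in ram 8. Its mean was -13.7 in the active group and 13.7 in the inactive group (exact permutation, two-sided p = 0.0974, adjusted p = 0.341). The second score correlated with the share of the 10 leading IDs (r = 0.70, permutation p = 0.0111, adjusted p = 0.037; rho = 0.82, permutation p = 0.00207, adjusted p = 0.016), and r was 0.76 without rams 7 and 4. Pairs of libraries correlated as closely across states as within them, with medians of 0.949 over 36 pairs between states, 0.951 over 15 active pairs and 0.952 over 15 inactive pairs.

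The 4 rams with the highest first component were also the 4 with the least depth. Over the 12 libraries the score correlated with log2 depth at a Pearson's r of -0.75 (permutation p = 0.00593, adjusted p = 0.0296) and a Spearman's rho of -0.68 (permutation p = 0.0194, adjusted p = 0.0646 over 10 relations). Without rams 6 and 12, the farthest from the median depth, r was -0.58. When every library was thinned to 19251952 counts, r between the score and the original depth was again -0.75. The score also fell with the level of the 35 hypothalamus genes (r = -0.78, permutation p = 0.00258, adjusted p = 0.0258; rho = -0.79, permutation p = 0.00321, adjusted p = 0.016). Leaving out rams 10 and 8 gave r = -0.71. Those 35 genes are part of the component, and both values come from the same libraries. With log2 depth as a covariate edgeR called 0 genes by state (898 at an unadjusted p below 0.05), and with the component score it called 0 (1562).

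**Figure D5:**
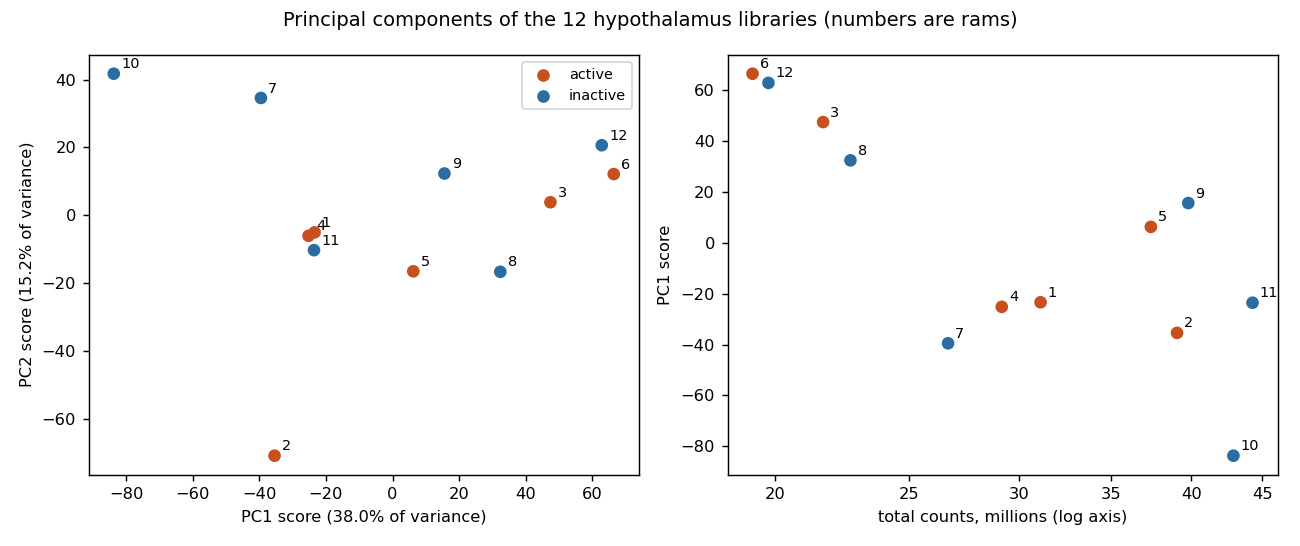
Left, scores of the 12 hypothalamus libraries on the first 2 principal components, with rams numbered and active rams in orange: the states intermix along the first, and ram 2 lies alone at -70.9 on the second. Right, the first score against total counts on a log axis, where the 4 shallowest libraries (rams 6, 12, 3 and 8) have the 4 highest scores.

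Over all genes, the rams of each state varied among themselves to a like degree. The biological coefficient of variation was 0.385 in active and 0.388 in inactive rams, and the median SD of log2 CPM was 0.39 and 0.40. A limma test of absolute deviations called 1 of 15655 genes (0.00639%) as differing in spread, with 282 more spread in active and 514 more spread in inactive rams at an unadjusted p below 0.05. The called gene was ENSOARG00020022802, with a mean absolute deviation of 0.39 in active and 2.31 in inactive rams on the log2 scale (limma, Benjamini-Hochberg adjusted p = 0.0215).

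ENSOARG00020022802 was present in some inactive rams and absent from others at this depth. It had 0 counts in rams 7 and 10, where 3 counts would be 0.12 and 0.0699 CPM, and 2 counts in ram 9. Rams 8, 11 and 12 had 33, 83 and 19 counts (1.40, 1.78 and 1.06 CPM), and the active rams had 19 to 59 counts (0.995 to 2.72 CPM). In the 24 libraries of the other tissues together it had 3 counts. The call was lost without any 1 of 10 rams, all but rams 3 and 4, and with deviations taken from the group median, where the adjusted p by limma was 0.109.

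Other genes with a low p for spread were not called. ENSOARG00020019169 kept to 18.5 to 22.3 CPM in active rams and ran from 13.7 to 30.2 CPM in inactive rams (adjusted p = 0.636 by limma). In the opposite direction, ENSOARG00020004826 had 163, 220 and 265 CPM in rams 2, 3 and 6 and 77.5, 79.9 and 83.5 CPM in rams 1, 4 and 5, while the inactive rams stayed between 75.5 and 119 CPM (adjusted p = 0.636). Ram 6 was also highest and the SD also larger in active rams in the other tissues, at 234 ± 132 against 131 ± 19.0 CPM in the pars tuberalis and 77.7 ± 41.1 against 45.7 ± 3.54 CPM in the pineal gland (SD, n = 6 each). ENSOARG00020023393 ran from 3.58 to 9.40 CPM in active and from 4.58 to 6.43 CPM in inactive rams (adjusted p = 0.636).

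Whether the state difference in the hypothalamus departs from that in the other tissues was tested over all 36 libraries, as the hypothalamus difference minus the mean of the pars tuberalis and pineal differences. edgeR called 0 of 16773 genes (0%), with a lowest adjusted p of 0.322 and 897 genes at an unadjusted p below 0.05, 612 of them positive and 285 negative. Without ram 4 there were 413 positive and 331 negative. DESeq2 called 22, 16 positive and 6 negative. The edgeR and DESeq2 fits took the tissues of the same ram as independent, although this contrast lies within rams. With the animal as a replicate block 0 genes were called, and 729 had an unadjusted p below 0.05. By edgeR no state difference was shown to be particular to the hypothalamus.

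The genes with the lowest p in that test were mostly raised in a single hypothalamus. ENSOARG00020026374 had 22.0 CPM in ram 4, 1.11 CPM in ram 3 and at most 0.288 CPM in the other ten, and stood at 34.4 ± 8.90 CPM in the active and 37.0 ± 8.11 CPM in the inactive pars tuberalis (SD, n = 6 each). ENSOARG00020021920 had 57.4 CPM in ram 4 and at most 2.49 CPM elsewhere in the hypothalamus. DESeq2 called both, with an adjusted p of 0.000977 for the former and 0.00567 for the latter. Their log2 differences, of 7.19 for the former, became 3.63 and 0.98 without ram 4 (adjusted p = 1 by edgeR), and with the animal as a replicate block the adjusted p was 0.992 for both. ENSOARG00020000496 had 32926 counts, or 767 CPM, in the hypothalamus of ram 10, at most 1.0 CPM in the other 11 hypothalami and at most 1.12 CPM in any library of the other tissues. Its difference of -8.61 (SE 1.90, adjusted p = 0.322 by edgeR) became 0.09 without ram 10.

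ENSOARG00020016892 was of another kind, with every hypothalamus well read. Rams 1 to 6 had 248, 224, 166, 198, 216 and 194 CPM, and rams 7 to 12 had 436, 219, 308, 452, 296 and 263 CPM. Ram 8 alone among the inactive rams lay within the active range. On the log2 scale the state difference was -0.67 here, against 0.31 in the pineal and 0.09 in the pars tuberalis, and the hypothalamus departed from the mean of the others by -0.87 (SE 0.20, adjusted p = 0.322 by edgeR and 0.0144 by DESeq2). With the animal as a replicate block this departure was -0.84, with an adjusted p of 0.795 by edgeR. It ran from -1.03 to -0.74 when 1 ram was left out, and edgeR called it in none of these fits.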

How the data were processed

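The deposited values are the authors' unnormalized gene counts for 36 libraries, whose columns all matched a labelled sample. Per the labels' protocols, the messenger RNA libraries were stranded and their adaptors held molecular identifiers. The tools listed, without a role, in the submitters' processing notes are STAR 2.7.8a, FastQC, edgeR and HTSeq. Genome build, annotation release, strand setting and the use made of the identifiers were not given in these sources, so overlapping genes and near-identical copies are uncertain, and limits from counts cover counting error only.

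Here, R 4.3.3 with edgeR 4.0.16, limma 3.58.1 and DESeq2 1.42.0 were used. The 12 hypothalamus libraries were fitted alone: edgeR's filter (minimum count 10) kept 15655 genes and removed 10823, counts were scaled with TMM (trimmed mean of M values), and the quasi-likelihood fit was robust, with active minus inactive as the contrast. Calls across all genes needed a Benjamini-Hochberg adjusted p below 0.05. SE is the absolute log2 difference over the square root of F. Log2 CPM used a prior count of 2. Values of the other tissues use the scaling of all 36 libraries. Spread was tested with limma on absolute deviations from the group mean. The interaction test used 36 libraries, without a term for the animal. By the animal numbers in the labels, the tissues come from the same rams and are paired: deviations correlated at medians of 0.0948 (hypothalamus and pars tuberalis) and 0.198 (hypothalamus and pineal gland) over 12 rams. Scripts were tested on simulated data.

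IDs were named by the lowest p among genes with a mean of at least 1 CPM, at most 2 in each direction per comparison, plus DESeq2's calls. Members, sets and tests were chosen with earlier results of these data known. Gene lists by symbol could not be used.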

Additional observations from a re-analysis of the deposited data

Results flagged for a closer look

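Among 46 groups of 6 values looked at, 10 held a highest or lowest ram farther from the next than Dixon's 95% limit allows. Chance flags about 1 in 20 groups, but most of these groups are genes chosen for a low p, some because 1 ram stood far out, so the number of flags is no test. In active rams, ram 4 stood at 17.1% for the pars tuberalis genes (next 1.99%). It stood at 22.0 CPM for ENSOARG00020026374 (next 1.11), 57.4 CPM for ENSOARG00020021920 (next 2.49) and 0.904 CPM for ENSOARG00020000496 (next 0.184). Ram 2 stood at -70.9 on the second principal component, where the next active ram had -16.5. Ram 6 was highest for ENSOARG00020016201 at 1.73 CPM (next 0.691) and lowest for ENSOARG00020006027 at 9.0 CPM (8.998 before rounding, next 21.3). Ram 3 had 2.72 CPM of ENSOARG00020022802 (next 1.30), and ram 1 had 0.979 CPM of ENSOARG00020025202 (next 0.231). In inactive rams, ram 10 had 767 CPM (767.5) of ENSOARG00020000496, where the next had 1.0.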

How the results depend on the processing

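Of 24 alternatives to the state test, 21 called 0 genes, among them every fit that left out 1 ram (0 to 0), other scaling and filters, voom with quality weights, and 3 added after the data were seen (depth or the first component as a covariate, thinned counts). DESeq2 called 5, the fit of 36 libraries 16 (11 higher, 5 lower), and voom with the animal as a replicate block 1, which was ENSOARG00020006027 (adjusted p 0.022 by limma). Genes at an unadjusted p below 0.05 numbered 456 to 1565. The 7 genes named for state kept their direction in the 24 alternatives, or 23 for ENSOARG00020015570, which a minimum mean of 1 CPM removed. DESeq2's 5 calls became 2 to 38 when 1 ram was left out, also added after the data were seen. They were 2 without ram 5 or 10, 3 without ram 4 or 7, and 38 without ram 8 (4 higher, 34 lower), where 10715 genes got no adjusted p, the 5 among them. ENSOARG00020010269 and ENSOARG00020016201 were called in 11 of those 12 fits each. ENSOARG00020006027 was called in 4, and ENSOARG00020025202 and ENSOARG00020015570 in 3 each. The 1 spread call was 0 with deviations from the group median and 0 to 2 when 1 ram was left out. The interaction calls stayed at 0 with the animal as a replicate block (729 at an unadjusted p below 0.05) and without any 1 ram (0 to 0), and were 22 by DESeq2. The difference in the first component's score ran from -10.75 without ram 10 to 28.8, and was never past the threshold. The depth difference ran from -5.66 to -0.754 in units of 1000000 counts. The interaction difference of ENSOARG00020000496 ran from -9.70 without ram 4 to 0.0856 without ram 10. The causes were not tested.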
